A study of Mus musculus with 20 samples.

Results

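Bidirectional promoter long non-coding RNAs (lncRNAs) are transcripts that start close to the start of another gene and run away from it on the opposite strand. The genes described here are those annotated with that type in GENCODE M21 (mouse build GRCm38) that held at least 50 counts summed over all 20 libraries. Genes named Snhg, Gas5, Neat1, Malat1 or Terc were to be left out, and 0 genes were dropped for that reason. This gave 117 genes of the 190 with this annotation, in a table of 55471 genes, and 73 fell below the minimum, 29 of them with no count at all. They were thus chosen by measured values, their counts summed over 12 Zcchc8 KO and 8 control libraries. Of the 117 genes, 58 held under 50 counts in the 8 control libraries, and a gene that passed only through the Zcchc8 KO libraries had to differ, so counts over all 117 are a description. The genes with the fewest counts above the minimum were 3110083C13Rik, beside Micu2, with 54 and Gm27011, beside Banp, with 56. Just below it lay Lrp8os3 with 49 and E230015B07Rik with 45.

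The libraries were made from total RNA of SIMS cells, a mouse salivary gland line grown in DMEM with fetal bovine serum. There were 5 groups of 4 libraries: unedited wild type, Btbd7 KO, which the series used as its negative control, and Zcchc8 KO clone 1, clone 2 and clone 3, all KOs being made with CRISPR/Cas9. Each Zcchc8 KO group is a single clone, and the labels do not say whether the Btbd7 KO cells were a clone or a pool. No label says that the 4 libraries of a group came from separate cultures, so p-values here measure the spread between these libraries, which may be technical.

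Many mammalian promoters are transcribed in both directions, giving a messenger RNA on one side and a short, unstable RNA on the other, called a promoter upstream transcript (PROMPT). The protein ZCCHC8 holds together the NEXT complex (nuclear exosome targeting), whose other members are the RNA-binding protein RBM7 and the helicase MTR4 (gene Mtrex). The complex hands short capped nuclear RNAs, PROMPTs among them, to the RNA exosome, a 3′ to 5′ nuclease. Some transcripts of this kind are long, spliced or stable enough to have been annotated as lncRNA genes.

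Of the 117 lncRNAs, 115 had a protein-coding gene on the opposite strand whose start lay within 2000 bases of their own, here called the partner. In 75 pairs the starts left a gap between them, and in 40 the 2 genes overlapped head to head. The median gap was 61 bases, and the range ran from -1291, an overlap, to 578. The following 5 promoter windows (RefSeq, GRCm38.p6, 250 bases before to 50 after the lncRNA's start, on the lncRNA's strand) show what such a promoter looks like. They belong to the most abundant lncRNA, 2 with large increases, the one called lower and one whose level did not pass the test. Capitals mark the bases between the GENCODE starts of the lncRNA and of its partner, which runs the other way.
4632427E13Rik and Rab30, chr7:92741410-92741709, minus strand: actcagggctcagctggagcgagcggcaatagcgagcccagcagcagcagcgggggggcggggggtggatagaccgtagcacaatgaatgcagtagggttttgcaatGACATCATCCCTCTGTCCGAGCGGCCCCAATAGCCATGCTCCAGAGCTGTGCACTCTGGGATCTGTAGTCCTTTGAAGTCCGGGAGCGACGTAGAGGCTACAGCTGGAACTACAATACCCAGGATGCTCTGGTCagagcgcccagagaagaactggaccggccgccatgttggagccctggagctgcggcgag
Gm4890 and Mmaa, chr8:79294828-79295127, plus strand: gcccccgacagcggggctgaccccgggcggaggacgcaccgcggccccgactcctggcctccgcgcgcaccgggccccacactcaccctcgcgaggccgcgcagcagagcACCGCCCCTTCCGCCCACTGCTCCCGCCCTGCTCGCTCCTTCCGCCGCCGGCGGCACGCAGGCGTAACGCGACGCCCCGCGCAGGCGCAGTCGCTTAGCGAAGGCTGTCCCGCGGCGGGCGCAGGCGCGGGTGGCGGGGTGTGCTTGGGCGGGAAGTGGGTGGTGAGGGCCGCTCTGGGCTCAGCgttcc
1700007L15Rik and Zfp148, chr16:33380687-33380986, minus strand: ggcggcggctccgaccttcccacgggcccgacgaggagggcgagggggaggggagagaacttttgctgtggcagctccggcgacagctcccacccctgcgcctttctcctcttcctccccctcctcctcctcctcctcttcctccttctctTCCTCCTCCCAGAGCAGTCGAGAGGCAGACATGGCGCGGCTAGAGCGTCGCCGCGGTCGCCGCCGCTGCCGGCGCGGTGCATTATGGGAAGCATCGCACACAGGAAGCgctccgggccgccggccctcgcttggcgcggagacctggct
F730043M19Rik and Atxn7l1, chr12:33147537-33147836, minus strand: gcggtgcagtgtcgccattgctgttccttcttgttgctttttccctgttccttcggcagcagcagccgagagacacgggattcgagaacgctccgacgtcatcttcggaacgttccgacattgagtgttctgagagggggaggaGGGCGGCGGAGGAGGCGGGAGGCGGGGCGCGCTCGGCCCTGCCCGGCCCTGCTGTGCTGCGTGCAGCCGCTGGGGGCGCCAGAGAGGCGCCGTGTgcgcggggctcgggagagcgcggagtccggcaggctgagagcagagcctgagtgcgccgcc
Cep83os and Cep83, chr10:94688564-94688863, minus strand: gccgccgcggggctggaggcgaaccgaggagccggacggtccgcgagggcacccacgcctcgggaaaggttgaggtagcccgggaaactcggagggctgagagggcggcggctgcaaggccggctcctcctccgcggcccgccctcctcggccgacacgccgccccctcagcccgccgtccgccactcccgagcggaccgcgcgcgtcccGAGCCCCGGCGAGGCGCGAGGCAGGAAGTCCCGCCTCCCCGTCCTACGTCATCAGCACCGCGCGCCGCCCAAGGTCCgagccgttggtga

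These windows are rich in G and C, at 60.7% for 4632427E13Rik, 78.0% for Gm4890, 70.0% for 1700007L15Rik, 68.7% for F730043M19Rik and 76.7% for Cep83os. RefSeq gave a window for 62 of the lncRNAs, with a median of 68.0% G and C, and for 88 of the partners, with a median of 67.3%. The median was 61.3% over 9031 tested protein-coding genes and 52.7% over all 27025 genes with a RefSeq window. For these 2 backgrounds the first listed window of each gene was used, and for lncRNAs and partners the one nearest their start. The ratio of observed to expected CpG had a median of 0.902 for the lncRNAs and 0.895 for the partners. It was 0.781 for tested protein-coding genes and 0.389 for all genes with a RefSeq window. GGGCGG, the GC box bound by Sp1, was found on either strand in 74.2% of lncRNA windows, against 66.4% of tested protein-coding and 35.9% of all windows. CGGAAG, a core of ETS-factor sites whose first 3 letters can be the last 3 of GGGCGG, was in 40.3%, against 33.9% and 17.2%. TATAAA was in 3.23%, against 6.40% and 14.2%, and CCAAT in 40.3%, against 39.4% and 37.9%. Of the 5 windows printed, those of 4632427E13Rik, Gm4890, F730043M19Rik and Cep83os hold GGGCGG and that of Gm4890 also holds CGGAAG. On the transcript strand, AATAAA was in 6.45% and GTAAGT, a splice donor sequence, in 1.61% of lncRNA windows, against 6.37% and 2.45% of tested protein-coding and 11.7% and 4.11% of all windows. These are matches of letters, not measured binding sites.

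Depth lay between 6833258 and 17771804 counts in genes per library. Wild-type replicate 1 stood apart, with a count in 41 of the 117 lncRNAs at a depth of 16083397. Replicates 2 to 4 of wild type had a count in 88 to 102 of them, Btbd7 KO in 99 to 104 and the Zcchc8 KO clones in 112 to 117. The genes were chosen partly by their counts in Zcchc8 KO, so the higher number in the clones is a description. A count of 0 in wild-type replicate 1 allows up to 0.195 CPM (counts per 1000000 of the TMM-scaled library size), on counting error alone. Some results that rest on this library are given with and without it. The calls higher clone by clone, the structure classes, the lower bounds on fold changes and the summed levels are given only with it. Btbd7 fell to 99.2 ± 3.23 CPM in Btbd7 KO from 202 ± 7.64 in wild type (SD, n = 4 each), whereas Zcchc8 RNA was called lower in clones 2 and 3 but not in clone 1 (log2 fold change -0.11, edgeR adjusted p = 0.291). A count over a whole gene does not show small edits, so it is a weak check of the KO labels. All 7 ductal epithelial markers examined were present, with a summed level of 3417 to 5048 CPM in wild type and 3105 to 3975 in the clones. Of these, Krt7, Krt8 and Krt18 were called lower in the mean of the clones, and Krt19, Epcam, Cdh1 and Cldn4 were not called. Taken singly, clone 2 had no call for Krt8. Krt19 was called higher in clone 2 and lower in clones 1 and 3. Cdh1 was called lower in clone 2 and higher in clone 3, and Cldn4 higher in clone 1. The basal markers summed to 253 to 398 CPM in wild type and 164 to 346 in the clones, where Krt14, nearly all of that sum, was called lower (log2 fold change -0.52, edgeR adjusted p = 2.63e-05) as well as in clones 1 and 3 taken singly. Trp63, also a basal marker, was called higher, through clone 2 (20.7 ± 1.51 CPM against 2.43 ± 1.11 in wild type, SD, n = 4 each). The acinar markers summed to 167 to 189.7 and 115 to 164, mostly Aqp5, which was called lower (-0.42) with all 12 clone libraries below wild type, and the fibroblast markers to 9.30 to 14.9 and 9.88 to 28.1, mostly Col1a1, which was called higher. The immune markers summed to 4.52 to 6.19 and 4.09 to 13.0, nearly all of it Cd68, which was called higher (0.58, and in clones 1 and 2 but not 3), with Ptprc at 0 in wild type. The myoepithelial, endothelial and neural markers stayed at or below 1.45, 1.02 and 0.248 CPM in every library, and Acta2, Cnn1, Cdh5 and Dcn were at 0 in wild type. In Btbd7 KO against wild type, Aqp5 was called lower too (-0.68, edgeR adjusted p = 6.86e-08) and Col1a1 higher (0.66, edgeR adjusted p = 0.00369). Krt14, Krt19 and Cldn4 were called higher there (0.37, 0.32 and 0.24) and Trp63 lower (-2.06). Krt7, Krt8, Krt18, Epcam, Cdh1 and Cd68 were not called in Btbd7 KO. Among the clones, Col1a1 was called in clones 2 and 3 but not in clone 1. The part of these shifts in the results below was not tested.

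Together the 117 lncRNAs took 331 ± 17.9 CPM (of unscaled counts in genes) in wild type and 343 ± 10.6 in Btbd7 KO (SD, n = 4 each). In clone 1 they took 937 ± 10.8, in clone 2 819 ± 19.8 and in clone 3 872 ± 24.5 (SD over 4 libraries). The 8 control libraries lay between 308 and 353 and the 12 Zcchc8 KO libraries between 802 and 946, so the groups did not overlap. The 117 include 58 lncRNAs with under 50 counts in the controls, which passed the minimum only with the Zcchc8 KO libraries. This separation is therefore a description, and the sum without them was not computed. The most abundant gene, 4632427E13Rik, held 27.2% of all counts in the 117 lncRNAs. In bulk RNA a change in the number of cells that make a transcript cannot be told apart from a change in RNA per cell.

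**Figure D1:**
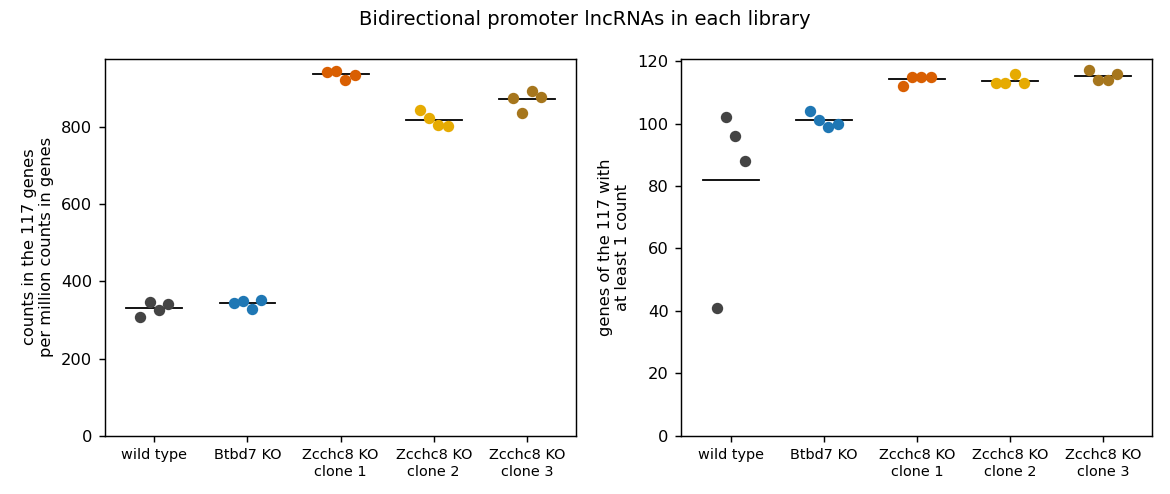
Each point is 1 library and each bar a group mean, and the left panel gives the summed CPM (of unscaled counts in genes) of the 117 lncRNAs, where the Zcchc8 KO libraries sit at 802 to 946 and the controls at 308 to 353. The right panel gives how many of the 117 had at least 1 count, where wild-type replicate 1 stands alone at 41. The genes were chosen partly by their counts in Zcchc8 KO, so both panels are a description.

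Among the 59 lncRNAs with at least 50 counts in the 8 control libraries, 46 were higher in Zcchc8 KO than in wild type, 1 was lower and 12 did not pass the test (edgeR quasi-likelihood test on the mean of the 3 clones, Benjamini-Hochberg adjusted p under 0.05 over all genes, here a call). Their median log2 fold change was 1.46. Over all 15297 genes tested, 16.2% were called higher and 19.9% lower, with a median of -0.01. Other non-coding classes of the annotation were also called higher more often than all genes, with 60.9% of 463 tested antisense genes (median 1.54) and 49.1% of 454 tested lincRNA genes (median 1.02). Without wild-type replicate 1, 47 of the 59 lncRNAs were higher and 3 lower, with a median of 1.50. In all, 101 of the 117 had enough counts to be tested, and 81 of them were called higher, 19 not called and 1 called lower, with a median of 2.12 and an interquartile range of 1.37 to 3.05. Without wild-type replicate 1 these counts were 84 higher and 3 lower, and the median was 1.98. The fit without this library chose the tested genes anew, and its share of all genes was not computed. The log2 fold change exceeded 1 in 84 lncRNAs, 2 in 55 and 3 in 28. Treating each cell line as 1 replicate, 3 clones against the 2 control lines, 57 of the 117 were called higher and 0 lower in edgeR (2 lower at an unadjusted p under 0.05), where 5.34% and 0.951% of 17346 genes were.

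The 16 lncRNAs that were not tested held 54 to 96 counts each, and 14 of them had a higher mean CPM in Zcchc8 KO than in wild type. Of these, 3110083C13Rik, which starts beside Micu2, a regulator of the mitochondrial calcium uniporter, lay at 0 to 0.523 CPM in wild type and 0 to 0.753 in the clones, so the groups overlapped. Gm27011, a 1-exon lncRNA beside Banp, lay at 0 to 0.4105 and 0 to 1.13, and also overlapped. Among the tested lncRNAs, all 12 Zcchc8 KO libraries lay above all 4 wild-type libraries in 51, where 6.01% of all tested genes did so. They lay above all 8 control libraries in 42, where 4.62% of all tested genes did. The tested lncRNAs include 42 with under 50 counts in the controls, which passed the minimum only with the Zcchc8 KO libraries. Both counts are therefore a description. For 5 lncRNAs no wild-type library had a count, and bounds were set against a floor of 3 counts over the 4 libraries. On counting error alone, Gm36246, beside Aaas, was at least 19.7-fold higher in Zcchc8 KO and 1700039M10Rik, beside Eef1akmt1, at least 17.9-fold. Gm49208, beside Ropn1l, was at least 16.2-fold higher, Gm44140 at least 11.4-fold and Gm49741 at least 8.01-fold. The first 3 of these were tested. Their bounds lie above the median of the tested lncRNAs, so that median is 2.12 with bounds or fitted values alike. All 5 held 2 to 10 counts in the controls and passed the minimum only with the Zcchc8 KO libraries. A rise was thus fixed by that choice, and these values are a description. The floor includes wild-type replicate 1, where E130317F20Rik had 0 counts against 84, 76 and 113 in the other wild-type libraries. A 0 there thus does not bound a level, and bounds without that library were not computed.

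**Figure D2:**
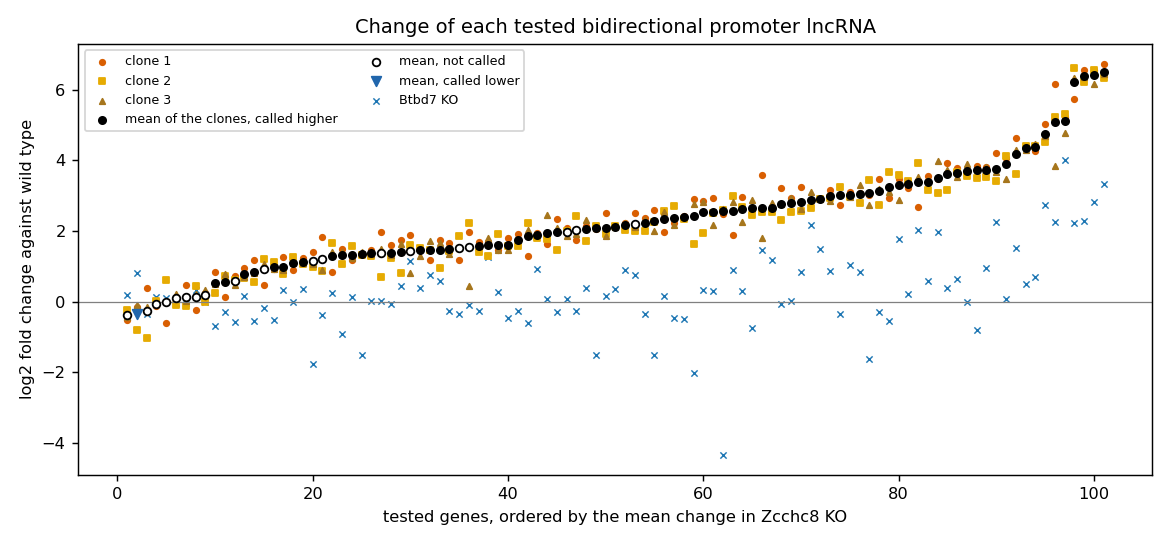
Log2 fold change against wild type (vertical axis) of the 101 tested lncRNAs, ordered by the mean of the 3 Zcchc8 KO clones, which runs from -0.39 to 6.50 and lies above 0 in 97. Black circles are called higher, open circles not called and the blue triangle, F730043M19Rik, called lower, coloured points give each clone and crosses Btbd7 KO, which shares the wild-type libraries with the clones.

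4632427E13Rik was the most abundant of these lncRNAs. It lies at chr7:92734166-92741468 on the minus strand (GRCm38), with 2 exons at most, beside Rab30, which encodes a small GTPase of the Golgi. Its wild-type libraries 1 to 4 were at 105, 66.2, 65.3 and 70.1 CPM and its Btbd7 KO libraries at 61.2, 63.8, 60.5 and 68.9. Clone 1 was at 283, 282, 296 and 303, clone 2 at 232, 239.8, 209 and 226 and clone 3 at 262, 221, 273 and 261. The lowest Zcchc8 KO library was thus above the highest control, wild-type replicate 1, which itself stood well above the other 7 controls. The log2 fold change was 1.74 (SE 0.09, adjusted p = 2.65e-13) in edgeR, a 3.34-fold increase. Leaving out wild-type replicate 1 gave 1.95.

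Gm4890 (chr8:79295123-79308961, plus strand, 3 exons) starts beside Mmaa, which encodes a mitochondrial protein of vitamin B12 metabolism. It was at 6.18, 5.67, 4.49 and 6.04 CPM in wild type and 6.63, 5.57, 4.09 and 5.83 in Btbd7 KO. It reached 44.1, 51.05, 39.4 and 36.9 in clone 1, 32.5, 29.4, 33.9 and 34.9 in clone 2 and 42.1, 37.8, 43.7 and 46.5 in clone 3, with no overlap between clones and controls. The log2 fold change was 2.80 (SE 0.12, adjusted p = 6.60e-15) against wild type in edgeR and 2.79 against Btbd7 KO (adjusted p = 4.70e-15).

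1700007L15Rik (chr16:33379854-33380727, minus strand, 2 exons) had the largest increase among the lncRNAs called in each clone with a wild-type mean of at least 10 counts. Its partner Zfp148 encodes a zinc-finger transcription factor. The lncRNA was at 0, 0.868, 2.32 and 2.17 CPM in the wild-type libraries and 1.63, 1.53, 1.12 and 0.845 in Btbd7 KO. It was at 15.5, 20.2, 16.4 and 14.5 in clone 1, 15.6, 15.5, 15.1 and 16.2 in clone 2 and 21.6, 19.3, 17.6 and 20.03 in clone 3. Every Zcchc8 KO library was above every control, and the log2 fold change was 3.69 (SE 0.33, adjusted p = 3.51e-09) in edgeR, or 3.31 without wild-type replicate 1, where the count was 0. Btbd7 KO differed from wild type by -0.01 (SE 0.45, edgeR adjusted p = 0.996).

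The same rule named 4 further lncRNAs with 1 exon, and in each of them the 12 Zcchc8 KO libraries lay above the 8 controls. AC133451.1 (chr19:53390789-53391795, plus strand), beside the splicing factor gene Smndc1, was at 0 to 3.17 CPM in the controls and 13.02 to 23.96 in the clones (medians 2.13 and 16.8), and changed by 3.39 (SE 0.34, adjusted p = 2.00e-08) on the log2 scale in edgeR. 6330408M09Rik (chr16:23127793-23128922, plus strand), beside Rfc4, a subunit of the clamp loader of DNA replication, was at 0 to 1.27 in the controls and 5.02 to 9.46 in the clones, a change of 3.33 (SE 0.38, adjusted p = 1.80e-07) in edgeR. 2410022M11Rik (chr14:56811989-56813899, plus strand), beside the zinc-finger gene Zmym5, was at 0 to 1.64 CPM in the controls and 4.14 to 10.95 in the clones, a change of 3.13. Gm49785 (chr16:17531182-17531518, plus strand), with an exon length of 337 bases, starts 46 bases from Thap7, which encodes a THAP-domain protein, and was at 0 to 1.77 CPM in the controls and 4.34 to 8.60 in the clones, a change of 3.05. All 4 had a count of 0 in wild-type replicate 1, and without that library their log2 fold changes were 3.00, 2.94, 2.75 and 2.67 in the order given, each still called in edgeR.

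Among the most abundant lncRNAs, 3 more rose in each clone. D430020J02Rik (chr12:116401947-116405210, minus strand, 2 exons), beside Ncapg2, a condensin II subunit, was at 21.3, 27.9, 29.8 and 31.4 CPM in wild type and 48.6 to 62.1 in the clones, and rose by 0.99 (SE 0.08, adjusted p = 6.45e-10) on the log2 scale in edgeR. E130317F20Rik (chr10:79851381-79854971, minus strand) overlaps the start of Ptbp1, which encodes a regulator of splicing. It was at 0, 4.86, 5.68 and 6.63 CPM in wild type and 16.3 to 20.7 in the clones, a change of 2.12, or 1.73 without wild-type replicate 1. AC114539.1 (chr19:46303591-46305611, minus strand, 3 exons) overlaps Nfkb2, which encodes the NF-kappaB subunit p100, and was at 11.6, 6.02, 7.10 and 7.51 CPM in wild type and 15.8 to 25.1 in the clones, a change of 1.37 (SE 0.18, adjusted p = 1.11e-06) in edgeR. Over the fits that left out 1 library the change of AC114539.1 ranged from 1.25 to 1.61.

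Per kilobase of exon, which allows levels of different genes to be compared, 1700007L15Rik stood at 23.4 CPM per kb in Zcchc8 KO and 1.81 in wild type, 4632427E13Rik at 35.2 and 10.5, Gm49785 at 20.1 and 2.34, AC133451.1 at 17.1 and 1.59, and B230354K17Rik at 9.41 and 9.76. Ndufb1-ps stood at 10.8 CPM per kb in Zcchc8 KO and 14.1 in wild type, where replicate 2 lay well above the other 3.

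**Figure D3:**
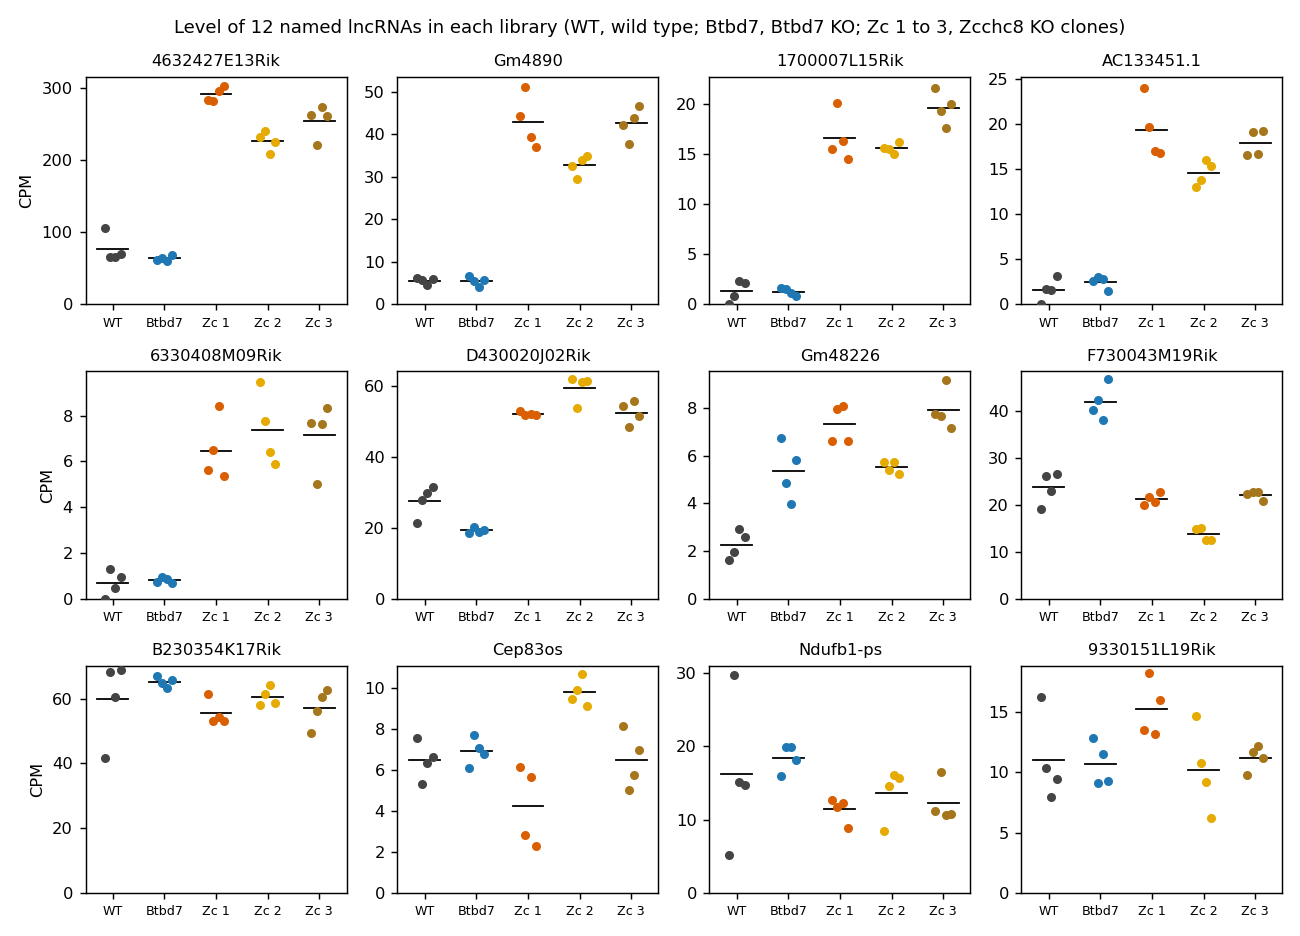
CPM (vertical axes, each from 0) of 12 named lncRNAs in the 20 libraries, with 1 point per library and a bar at the group mean. In the 6 panels from 4632427E13Rik to D430020J02Rik the points of the 3 Zcchc8 KO clones lie above those of wild type and Btbd7 KO, in Gm48226 those of Btbd7 KO are raised too, and in the last 5 panels clones and wild type overlap.

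The 5 most abundant lncRNAs that were not called in either direction were B230354K17Rik, Ndufb1-ps, 9330151L19Rik, 4933412E12Rik and Cep83os. All 5 are spliced, with 2 to 4 exons. B230354K17Rik (chr17:45433598-45442544, plus strand), beside Cdc5l, a spliceosome protein gene, was at 41.8, 68.3, 60.4 and 68.9 CPM in wild type and 49.3 to 64.3 in the clones, so the ranges overlapped. Its log2 fold change was -0.05 (SE 0.09, adjusted p = 0.681) in edgeR. Leaving out wild-type replicate 1 gave -0.17 and a call as lower (edgeR adjusted p = 0.0366). Ndufb1-ps (chr12:101968090-101977068, minus strand), whose symbol marks a pseudogene of a complex I subunit and which overlaps Cpsf2, a cleavage and polyadenylation factor gene, was at 5.20, 29.8, 15.1 and 14.7 in wild type. The clones lay at 8.50 to 16.4, and the log2 fold change was -0.39 (SE 0.23, adjusted p = 0.209) in edgeR. This value rested on single libraries and was -0.66 without wild-type replicate 1 (adjusted p = 7.89e-04) and 0.09 without wild-type replicate 2 (edgeR adjusted p = 0.771). How reads shared with copies of Ndufb1 were counted is not given in the sources used here.

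9330151L19Rik (chr12:69197211-69199867, plus strand), beside Gm49383, was at 16.3, 10.4, 7.9996 and 9.44 CPM in wild type and 6.22 to 18.3 in the clones, with a change of 0.12 on the log2 scale (edgeR adjusted p = 0.645). Without wild-type replicate 1 it was 0.38 (edgeR adjusted p = 0.0614). 4933412E12Rik (chr10:116949757-116963279, plus strand) overlaps the start of Rab3ip, which encodes an exchange factor for Rab8. It was at 10.6, 9.95, 11.3 and 8.33 CPM in wild type and 8.33 to 14.1 in the clones, a change of 0.09 (edgeR adjusted p = 0.645). Neither lncRNA separated the groups.

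Cep83os (chr10:94671025-94688576, minus strand, 3 exons) starts 78 bases from Cep83, which encodes a protein of centriolar distal appendages. Its wild-type libraries were at 7.54, 5.32, 6.35 and 6.63 CPM and those of Btbd7 KO at 6.09, 7.70, 7.07 and 6.76. Clone 1 was at 6.12, 2.84, 5.65 and 2.29, clone 2 at 9.46, 9.90, 10.7 and 9.12 and clone 3 at 8.12, 5.02, 5.74 and 6.95. All 4 libraries of clone 2 lay above the controls and 2 of clone 1 below them. The log2 fold changes were -0.62, 0.60 and 0.02 in clones 1 to 3, a joint test called a difference between them (edgeR adjusted p = 0.00108), and the mean over the clones was 0.00 (SE 0.22).

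F730043M19Rik (chr12:33111711-33147597, minus strand), with 9 exons the lncRNA with the most exons of the set, starts 96 bases from Atxn7l1, an ataxin-7-like gene. It was at 19.2, 26.3, 23.03 and 26.6 CPM in wild type and at 40.3, 42.4, 38.1 and 46.8 in Btbd7 KO, all 4 of which lay above the wild-type libraries. Clone 1 was at 20.1, 21.7, 20.7 and 22.8, clone 2 at 14.8, 15.1, 12.6 and 12.5 and clone 3 at 22.4, 22.8, 22.7 and 20.8. Clone 2 lay below all controls, while clones 1 and 3 lay within the wild-type range. The mean change in Zcchc8 KO was -0.35 (SE 0.09, adjusted p = 0.00247) in edgeR, with -0.16, -0.80 and -0.10 in clones 1 to 3, of which only clone 2 passed the test. The joint test of the clones called a difference (edgeR adjusted p = 4.64e-05). With cell lines as replicates, where the clones are set against wild type and Btbd7 KO together, the change was -0.83. The call was lost there (edgeR adjusted p = 0.136). Its partner Atxn7l1 was at 50.8, 60.4, 60.2 and 68.8 CPM in wild type and 92.5, 87.2, 80.5 and 93.8 in Btbd7 KO, and changed by 0.56 in Btbd7 KO and -0.26 in Zcchc8 KO (edgeR adjusted p = 1.13e-04 and 0.00805). Exons of this lncRNA overlap an exon on the opposite strand, as do those of B230354K17Rik, Ndufb1-ps, 9330151L19Rik and Cep83os, and how such reads were counted is not given in the sources used here.

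Clone by clone, 76 of the 101 tested lncRNAs were called higher in clone 1, 76 in clone 2 and 72 in clone 3, where 16.7%, 16.1% and 14% of all tested genes were. In clone 1 edgeR called 0 lower (1 at an unadjusted p under 0.05, 0 in DESeq2), in clone 3 also 0 (0 unadjusted, 0 in DESeq2) and in clone 2 it called 1, where 19.1%, 15.3% and 16.2% of all genes were lower. Called higher in the mean and in each clone were 64, where 7.64% of all genes were. The 101 include 42 lncRNAs with under 50 counts in the controls, so these counts of higher lncRNAs are a description. The change was above 0 in all 3 clones in 92 lncRNAs, and clone 1 had the largest of the 3 values in 51, clone 2 in 30 and clone 3 in 20. A joint test called a difference between the clones in 6 of the 101, where it called 28.5% of all genes. The share was also low in other non-coding classes, at 7.78% of antisense and 11.2% of lincRNA genes, against 35.9% of protein-coding genes. Without wild-type replicate 1 the joint test called 16 of the lncRNAs, and without replicate 3 of clone 1 it called 3, with no share of all genes computed.

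Besides Cep83os and F730043M19Rik these 6 were Gm2895, Gm4890, 4632427E13Rik and Gm17249. The last, beside Polr3b, an RNA polymerase III subunit gene, is named after its values were seen, with log2 fold changes of 1.74, 0.81 and 1.62 in clones 1 to 3 (joint edgeR test, adjusted p = 0.0491). Gm2895 (chr15:66969323-67013039, plus strand, 2 exons) overlaps the start of Ndrg1, a stress-responsive gene. It had a single wild-type library with counts, replicate 3 with 3, and was at 0, 0.265, 0.496 and 0.422 CPM in Btbd7 KO. It reached 3.39, 4.87, 5.36 and 3.18 in clone 1, 0.685, 2.49, 2.85 and 2.49 in clone 2 and 0.854, 0.879, 0.892 and 0.750 in clone 3. Clone 1 was the highest, and 3 of the 4 libraries of clone 2 lay above clone 3. The log2 fold changes against wild type were 6.15, 5.21 and 3.84 (joint edgeR test, adjusted p = 0.0160). These sizes are imprecise, since the mean over the clones moved from 5.07 to 7.58 without wild-type replicate 3. The PROMPT region of Ndrg1 held similar values and may count the same reads, at 3.65, 5.42, 4.34 and 4.33 CPM in clone 1, 0.685, 2.49, 2.79 and 2.07 in clone 2 and 0.783, 0.879, 1.02 and 0.750 in clone 3. Ndrg1 itself was at 301 to 379 CPM in clone 1, 252 to 288 in clone 2, 161 to 194 in clone 3 and 215 to 245 in wild type.

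In Btbd7 KO, 4 of the 101 lncRNAs were called higher than wild type and 3 lower, where 7.73% and 8% of all genes were, and the median change was 0.16. Other non-coding classes had similar shares, 2.81% higher and 3.89% lower for antisense genes and 2.64% and 3.30% for lincRNA genes. Leaving out wild-type replicate 3 gave 10 and 6 of the lncRNAs, and leaving out replicate 2 of Btbd7 KO gave 2 and 1, with no share of all genes computed. Gm48226 (chr12:78222286-78226525, minus strand, 1 exon) overlaps the start of Gphn, the gephyrin gene, and was at 1.63, 1.97, 2.92 and 2.58 CPM in wild type and 6.75, 4.84, 3.97 and 5.83 in Btbd7 KO. It was at 6.64, 7.99, 8.11 and 6.62 in clone 1, 5.76, 5.41, 5.76 and 5.25 in clone 2 and 7.76, 7.66, 9.18 and 7.15 in clone 3. All edited libraries thus lay above wild type. The change was 1.25 (SE 0.22, adjusted p = 1.88e-04) in Btbd7 KO and 1.59 (SE 0.19, adjusted p = 3.28e-07) in Zcchc8 KO, both in edgeR and against the same wild-type libraries. Between Zcchc8 KO and Btbd7 KO the difference was 0.34 (SE 0.17, adjusted p = 0.114), which did not pass the edgeR test. D430020J02Rik lay at 18.4, 20.4, 18.9 and 19.4 CPM in Btbd7 KO, below its wild-type libraries, a change of -0.52 (SE 0.10, adjusted p = 4.79e-04) in edgeR, opposite in sign to its change in Zcchc8 KO. The third lncRNA named by this comparison, F730043M19Rik, rose by 0.82 (SE 0.11, adjusted p = 5.34e-06) in edgeR. The remaining 4 calls are of lncRNAs with few counts and were named after their values were seen. Gm26708, with a single count in wild type, lay at 0 to 0.0748 CPM in wild type and 0.121 to 0.863 in Btbd7 KO, and Gm32031 at 0 to 0.289 and 0.253 to 0.620, both called higher. Gm26910 lay at 0.116 to 2.21 and 0 to 0.422, and AC163629.1 at 0 to 0.645 in wild type and at 0 in all 4 Btbd7 KO libraries, both called lower.

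Set against Btbd7 KO in place of wild type, 75 of the 101 lncRNAs were called higher in Zcchc8 KO and 1 lower, where 18.8% and 22.2% of all genes were. The median log2 fold change was 1.88. The one called lower was again F730043M19Rik, with -1.17 (SE 0.08, adjusted p = 3.82e-11) in edgeR. The 2 comparisons share the Zcchc8 KO libraries. Here too the 101 include 42 lncRNAs with under 50 counts in the controls, so the number higher is a description.

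A smaller share of partners than of lncRNAs was called higher. In Zcchc8 KO against wild type, edgeR called 13 of 114 tested partners higher, 41 lower and 60 in neither direction. That is 11.4% higher and 36.0% lower, where 16.2% and 19.9% of all genes and 11.8% and 25.4% of 11481 protein-coding genes were called. Their log2 fold changes had a median of -0.10, where that of all genes was -0.01. The number lower was 22 without TMM factors, 29 in DESeq2 and 29 without wild-type replicate 4, with no share of all genes computed. Of the 81 lncRNAs called higher, 12 had a partner called higher, 29 a partner called lower and 40 a partner not called. Rab30, beside 4632427E13Rik, had the largest decrease among the partners named here, from 23.2, 17.4, 18.4 and 17.4 CPM in wild type to 9.70 to 12.4 in the clones, with no overlap between the groups. Its log2 fold change was -0.82 (SE 0.11, adjusted p = 2.88e-06) in edgeR, and in Btbd7 KO it lay at 15.6, 14.2, 19.6 and 20.8 CPM. Mmaa, beside Gm4890, lay at 33.8 to 49.5 CPM in wild type and 20.6 to 47.4 in the clones (log2 fold change -0.06, edgeR adjusted p = 0.679). Zfp148, beside 1700007L15Rik, lay at 172 to 223 and 166 to 195 (-0.08, edgeR adjusted p = 0.297). Smndc1 fell by 0.25 on the log2 scale and Rfc4 rose by 0.32 (edgeR adjusted p = 0.00759 and 0.0269). Over 100 pairs, the median log2 ratio of lncRNA to partner counts in a library was -7.00 ± 1.09 for wild type and -6.51 ± 0.22 for Btbd7 KO (SD, n = 4 each). Clone 1 had -4.26 ± 0.11, clone 2 had -4.41 ± 0.23 and clone 3 had -4.30 ± 0.14 (SD over 4 libraries). The lowest wild-type value, -8.64, was that of replicate 1. The Zcchc8 KO libraries lay between -4.72 and -4.12 and the other 7 controls between -6.71 and -6.29. These pairs include lncRNAs with under 50 counts in the controls, which passed the minimum only with the Zcchc8 KO libraries. This separation is therefore a description, and the ratio without them was not computed. Where a lncRNA had no count, its ratio rests on a pseudocount and so on depth.

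The authors' PROMPT table counts reads upstream of each gene, so the PROMPT region of a partner lies on the lncRNA's side of the shared promoter and that of the lncRNA on the partner's side. The table holds 3 wild-type libraries, without replicate 1, and how far a region reaches and whether strand was used are not given in the sources used here. A partner's PROMPT region and the lncRNA can therefore hold the same reads. The PROMPT region of a lncRNA can likewise hold reads of the partner gene, and these were not separated from other upstream RNA. Of 112 partner PROMPT regions tested, edgeR called 95 higher and 0 lower in Zcchc8 KO (0 lower at an unadjusted p under 0.05), where 39.2% and 3.85% of all regions were, with a median log2 fold change of 1.84 against 0.43. Scaling within the PROMPT table gave a median of 1.50, with 81 called higher and 2 lower. Of 115 PROMPT regions of the lncRNAs themselves, 23 were called higher, a smaller share than the 39.2% of all regions, and 4 lower, with a median of 0.13. Under scaling within the table their split turned to 11 higher and 43 lower, with a median of -0.24, where 30.1% of all regions were higher and 21.9% lower, with a median of 0.02.

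For each of the 12 lncRNAs that were named by rule and rose, the partner's PROMPT region was called higher too, with log2 fold changes from 0.90 (Ncapg2) to 4.74 (Ndrg1). The PROMPT region of Zfp148 was at 2.14, 3.66 and 4.22 CPM in wild-type replicates 2 to 4 and 25.5 to 37.8 in the clones, a log2 fold change of 3.25 (SE 0.15, adjusted p = 3.37e-27) in edgeR. That of Mmaa was at 11.3, 13.01 and 14.8 and 74.97 to 113, above the level of Gm4890 itself, a change of 2.81. That of Rab30 was at 19.9, 21.98 and 21.2 and 71.1 to 103, a change of 2.01. Of the 81 lncRNAs called higher, 76 had a partner PROMPT region called higher. Of the 19 not called, 11 had one, and Cep83os was among them. The PROMPT region of Cep83 was at 3.41, 3.66 and 7.21 CPM in wild type and 11.5 to 15.6 in the clones, with no overlap and a change of 1.55 (SE 0.17, adjusted p = 1.01e-11) in edgeR. In all 12 Zcchc8 KO libraries this level exceeded that counted in Cep83os. The PROMPT regions of Cdc5l, beside B230354K17Rik, and of Atxn7l1, beside F730043M19Rik, were not called, with changes of 0.09 and -0.27 (edgeR adjusted p = 0.685 and 0.147). Those of Rab3ip and Cpsf2 were called, with changes of 0.69 and 0.44, although 4933412E12Rik and Ndufb1-ps were not.

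**Figure D4:**
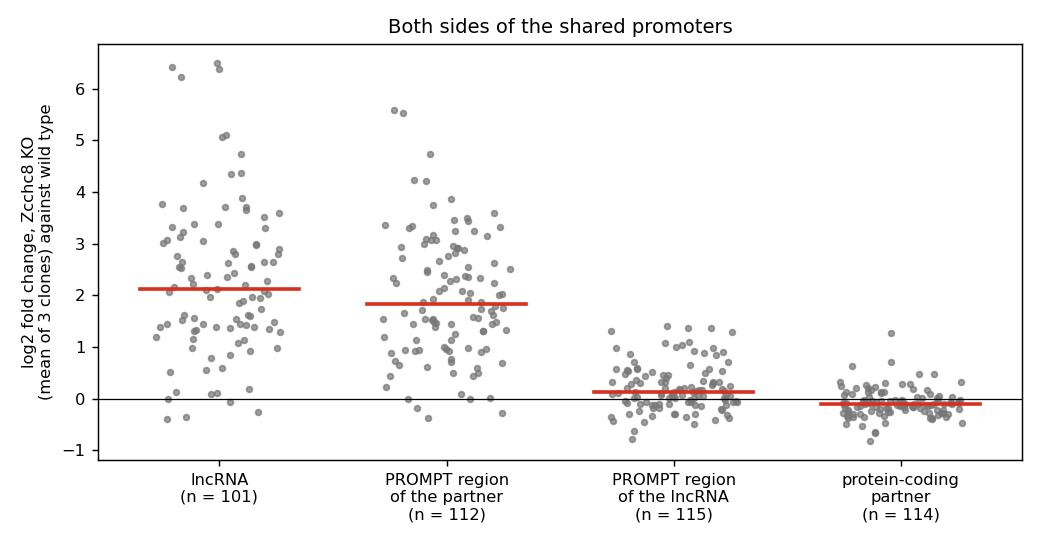
Log2 fold change in Zcchc8 KO against wild type (vertical axis) for the lncRNAs, the PROMPT regions of their partners, their own PROMPT regions and the protein-coding partners, with 1 point per gene or region and a red bar at the median. The medians are 2.12, 1.84, 0.13 and -0.10, and points are spread sideways so that they can be seen.

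The lncRNAs varied in structure. Of those with 1 exon in every annotated transcript, 30 of 33 tested were called higher, with a median log2 fold change of 2.56, and of those with 2 or more exons 51 of 68, with a median of 2.04. With 3 or more exons it was 25 of 33 and 2.06. The 47 tested lncRNAs with an exon length up to the median of 1299 bases had a median change of 2.56, and the 54 longer ones 1.61. The shorter ones were also less abundant, with a median wild-type level of 0.283 CPM against 1.18, and low counts and length were not separated here. The 59 lncRNAs with at least 50 counts in the controls had a median change of 1.46, and the 42 tested ones below that count 2.93, a split that uses control counts and so shares them with the change itself. Exons of 44 lncRNAs overlapped an exon of another gene on the opposite strand, where reads could not be told apart without strand. Of these, 30 of 39 tested were called higher, with a median of 2.12, and of the 73 without any such overlap 51 of 62, with a median of 2.15. The differences between these classes were not tested.

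The annotated 3′ ends were searched for the polyadenylation signal AATAAA, or its variant ATTAAA, in the last 50 bases of 1 transcript per gene. AATAAA was present in 41.9% of the 117 lncRNAs and ATTAAA in 8.55%, against 56.5% and 12.4% of 21897 protein-coding genes and 31.4% and 9.63% of 5617 lincRNA genes. AATAAA was present in 34 of the 81 lncRNAs called higher (42.0%) and in 8 of the 20 others tested (40%). The ends below belong to 2 lncRNAs that rose, 1 without either signal, and to 3 abundant lncRNAs that were not called or were lower, all with AATAAA (GENCODE M21 transcripts, signals in capitals). Of the 5 abundant lncRNAs that were not called, Cep83os has neither signal and the other 4 have AATAAA. Of the further lncRNAs named by rule that rose, 2410022M11Rik, Gm49785, AC114539.1 and Gm48226 have AATAAA. AC133451.1 and Gm2895 have ATTAAA, and 4632427E13Rik, 6330408M09Rik, D430020J02Rik and E130317F20Rik have neither.
1700007L15Rik, rose: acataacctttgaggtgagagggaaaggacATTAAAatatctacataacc
Gm4890, rose: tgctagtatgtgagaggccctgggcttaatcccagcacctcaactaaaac
B230354K17Rik, not called: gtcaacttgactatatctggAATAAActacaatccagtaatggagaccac
9330151L19Rik, not called: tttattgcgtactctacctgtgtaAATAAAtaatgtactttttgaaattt
F730043M19Rik, called lower: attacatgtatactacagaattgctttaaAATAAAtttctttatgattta

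Among 25 genes of the machinery that recognises and degrades such RNAs, 2 were called higher, 10 lower and 12 in neither direction in Zcchc8 KO, where 16.2% and 19.9% of all genes were, and Exosc6 was not tested. All 3 NEXT genes were called lower in the mean of the clones, Zcchc8 being the edited gene itself. Their log2 fold changes were -0.62 for Zcchc8, -0.27 for Mtrex, the helicase gene, and -0.20 for Rbm7. Set against Btbd7 KO, Rbm7 was not called (-0.07, edgeR adjusted p = 0.441), whereas Zcchc8 and Mtrex were called lower (-0.55 and -0.24). Against wild type, the clones differed in which passed the edgeR test. Zcchc8 was at -0.11, -1.48 and -0.26 in clones 1 to 3 and passed in clones 2 and 3. Mtrex passed in clones 1 and 3 and Rbm7 in clone 2. Neither tested gene of the polyA exosome targeting connection, Zfc3h1 or Pabpn1, was called, with changes of 0.04 and 0.26. Of 5 genes for cap-binding proteins and their adaptors, Srrt was called higher, at 0.49, and Ncbp1 lower, at -0.17. Zc3h4, of the Restrictor complex that ends early non-coding transcription, was higher by 0.28. Of 13 exosome genes, 6 were called lower, among them the nuclease genes Dis3, at -0.31, and Exosc10, at -0.16.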

How the data were processed

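Total RNA was sequenced from 20 libraries, 5 groups of 4, with a kit that keeps strand, per the labels' protocols. The authors deposited 2 tables of whole-number counts, 1 per gene for 20 libraries and 1 per PROMPT region for 19 (3 wild type). The submitters' processing notes name FastQC and STAR 2.7.3a. The counter, its strand setting, the genome build and the annotation release are not given in the sources used here. Gene types, starts and exons were taken from GENCODE M21, whose identifiers matched 54573 of 55471 genes with version and 55230 without. The lncRNAs and all lists were chosen with earlier results of these data known.

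Counts were analysed with edgeR 4.0.16 (R 4.3.3): TMM factors, filterByExpr, 1 quasi-likelihood fit of 5 group means over the whole table, and contrasts against wild type or Btbd7 KO with Benjamini-Hochberg adjustment over all features tested. PROMPT counts used the library sizes and factors of the gene table. CPM are TMM-scaled, the median ratio of lncRNA to partner used a pseudocount of 0.5, and floors use 3 counts and cover counting error alone. The fit was tested on simulated counts. The partner is the protein-coding gene on the opposite strand with the nearest start within 2000 bases.

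Genes were named by rule: the 8 most abundant, the 6 largest increases called in each clone with a wild-type mean of at least 10 counts, the 5 most abundant not called, those called lower, the 3 and the 4 with the lowest adjusted p in Btbd7 KO and between clones, any of a list of characterised lncRNAs (none was a member), and those at the 50-count minimum. Lists of NEXT and exosome genes and of ductal, basal, acinar, myoepithelial, fibroblast, endothelial, immune and neural markers were examined. Alternatives were no TMM, DESeq2 1.42.0, other filters and minimums, a replicate block, cell lines as replicates, TMM within the PROMPT table and each library left out. Chosen after seeing the data were TMM after the filter, wild-type replicate 1 left out together with the control-count minimum, and the search of 3′ ends. Promoter windows came from RefSeq, 3′ ends from GENCODE transcripts.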

Additional observations from a re-analysis of the deposited data

Results flagged for a closer look

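In 110 groups of 4 libraries examined for the named lncRNAs and the summed measures, 8 libraries stood far from the other 3 of their group, where chance gives about 1 in 20 groups. In wild type these were the highest library for 4632427E13Rik at 105 CPM (replicate 1), for Gm27011 at 0.4105 and for Gm2895 at 0.224, and the lowest for the median log2 ratio of lncRNA to partner at -8.64 (replicate 1). In clone 2 they were the highest for 4933412E12Rik at 12.6 CPM and the lowest for D430020J02Rik at 53.9 and for Gm2895 at 0.685. In clone 3 it was the highest for Ndufb1-ps at 16.4 CPM.

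The Zcchc8 KO clones differed from each other by the joint edgeR test in 5 named lncRNAs. The adjusted p was 4.64e-05 for F730043M19Rik (edgeR), which was lower in clone 2 than in clones 1 and 3. It was 0.00108 for Cep83os (edgeR), highest in clone 2, and 0.0160 for Gm2895 (edgeR), highest in clone 1. It was 0.0181 for Gm4890 and 0.0241 for 4632427E13Rik (edgeR), both lowest in clone 2. All 5 differences rest on 1 clone per group.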

How the results depend on the processing

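The rise of the lncRNAs kept its direction under each alternative run, with 76 to 87 of them called higher, 1 to 3 called lower and a median log2 fold change of 1.98 to 2.37 over the fits that left out 1 library. Without TMM the median was 2.21, the partners called lower numbered 22 with a median of -0.0248, and B230354K17Rik stood at 0.0233. DESeq2 called 92 lncRNAs higher and gave a partner median of -0.0705. TMM after the filter gave a partner median of -0.0805. Without a filter 2 lncRNAs were lower. The median was 1.95 for genes averaging 10 or more counts and also 1.95 at 200 summed counts. At an absolute log2 fold change over 1, edgeR called 0 lower. With cell lines as replicates, a comparison with wild type and Btbd7 KO together, edgeR called 0 lower and the median was 1.91. F730043M19Rik (-0.83) and Gm48226 (0.79), both raised in Btbd7 KO, lost their calls there. With at least 50 control counts 46 were higher with a median of 1.46 (1.455), or 47 higher and 3 lower with 1.50 when wild-type replicate 1 was left out too. For PROMPT regions, TMM within the table gave 2 partner regions lower with a median of 1.50, and 11 higher and 43 lower with a median of -0.24 for the lncRNAs' own regions.

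Over the fits leaving out 1 library, the lncRNAs called lower ranged from 0 to 2 in clone 1, 1 to 2 in clone 2 and 0 to 1 in clone 3 (edgeR). For Btbd7 KO against wild type they ranged from 2 to 10 higher and 1 to 6 lower, with a median of 0.0579 to 0.39. Against Btbd7 KO 1 to 3 were lower in Zcchc8 KO, with a median of 1.77 to 1.93. Differences between clones ranged from 3 to 16, and partners called lower from 29 to 39 with a median of -0.11 to -0.0770. The partner PROMPT regions had a median of 1.78 to 1.96. Cep83os ranged from -0.0828 to 0.11, Ndufb1-ps from -0.66 to 0.0914 and B230354K17Rik from -0.17 to 0.0410. The cause of these shifts was not tested.

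The labels give the groups the same replicate numbers without saying what they mark. Of 40 same-numbered pairs, 2 correlated over 0.1 in their deviations from the group means (median -0.001), and 4 of 20 libraries correlated best with their own number. No pairing by number was thus seen in these values, which cannot show what the numbers share. With the replicate block the median was 2.18, 1 lncRNA was lower in clone 1 and 2 against Btbd7 KO, and Cep83os stood at -0.00494. Depth limits the 58 lncRNAs with under 50 control counts most. A count of 0 in wild-type replicate 1 allows up to 0.195 CPM on counting error alone.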
